A study of Homo sapiens with 6 samples.

Results

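A set of 10 long noncoding RNAs of the nucleus, of imprinted loci and of snoRNA host genes were followed in H660 cells with and without MUC1-C silencing, namely MALAT1, NEAT1, MEG3, H19, KCNQ1OT1, GAS5, SNHG1, MIAT, PVT1 and TUG1. Members were chosen by symbol, as the rows of the gene count and TPM tables that carry these 10 names among 28008 symbols. All 10 had a row, 8 passed the filter on low counts, and MEG3 and H19 did not. NEAT1 passed the threshold in the main test, with a level 25.4% lower in the DOX-positive libraries. That call held in 10 of 18 alternative fits. The other 7 tested RNAs missed the threshold. Of these, MALAT1 (-0.47) and KCNQ1OT1 (-0.61) had larger log2 fold changes than NEAT1 (-0.42), with wider spread. MEG3 and H19 were too low to be tested for change.

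NCI-H660 (H660) is a human cell line of neuroendocrine prostate cancer. The cells carried a tet-inducible MUC1shRNA vector, selected with puromycin, so that doxycycline (DOX) turns on a hairpin against MUC1, a transmembrane mucin with an oncogenic C-terminal subunit, MUC1-C. The 3 DOX-negative libraries came from cells given 0.1% DMSO as vehicle and the 3 DOX-positive libraries from cells given 500 ng/ml DOX. Total RNA from triplicate cultures was sequenced, after a week of DOX in the treated group per the study's figure legend. Both groups carried the same vector, and with 1 hairpin and no DOX-treated control hairpin, effects of DOX itself and of MUC1 silencing cannot be told apart. The sources do not say whether the cultures were separate experiments, so p-values measure the spread between these samples, which may be technical.

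Long noncoding RNAs are transcripts without a known protein product, and many of them stay in the nucleus. MALAT1 gathers in nuclear speckles, where splicing factors are stored, whereas NEAT1 is the scaffold around which paraspeckles are built. Imprinted genes are expressed from the maternal or the paternal copy alone, and KCNQ1OT1, H19 and MEG3 are noncoding RNAs of such loci. GAS5 and SNHG1 are hosts of small nucleolar RNAs (snoRNAs), which are cut from their introns and guide the chemical modification of ribosomal RNA. Their spliced transcripts carry a pyrimidine tract at or near the start and are degraded by nonsense-mediated decay when ribosomes translate them.

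MALAT1 and the long form of NEAT1 do not end in a conventional poly(A) tail. RNase P cuts their 3′ ends and a genomically encoded A-rich tract folds with 2 U-rich motifs into a triple helix. These ends are shown because the libraries were labelled as made with an mRNA kit, which captures poly(A). Both stretches of 100 bases come from GENCODE transcripts on GRCh38, plus strand, at chr11:65445441-65445540 (the last bases of NEAT1) and chr11:65506017-65506116 (near the 3′ end of MALAT1). Capitals mark the 3 exact runs of at least 8 bases that the stretches share, TTTCTTTT, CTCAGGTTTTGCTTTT and AAAAAGCAAAA.
NEAT1: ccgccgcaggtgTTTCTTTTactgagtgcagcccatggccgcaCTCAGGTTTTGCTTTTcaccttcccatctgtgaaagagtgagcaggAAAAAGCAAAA
MALAT1: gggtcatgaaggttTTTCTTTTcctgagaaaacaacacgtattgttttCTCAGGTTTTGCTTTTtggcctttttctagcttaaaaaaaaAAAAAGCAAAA
Of 203677 GENCODE transcripts of at least 100 bases, 1 held all 3 runs in its last 100 bases on the transcript strand, and that was NEAT1 itself. The longest MALAT1 transcript in that annotation runs on for 353 bases past the element, so its last 100 bases do not hold them. Because the runs were taken from NEAT1, its match was fixed in advance. The count of 1 therefore does not show how rare such 3′ ends are.

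GAS5 and SNHG1 are shown at their starts, with the longest run of C and T near the start in capitals. The GAS5 stretch is the first exon of a GENCODE transcript whose start is shared by 6 of 29 GAS5 transcripts, on GRCh38 at chr1:173867960-173867989, minus strand. The SNHG1 stretch is the RefSeq promoter window on GRCh38.p14 at chr11:62855836-62856135, minus strand, 250 bases before the start and 50 after it.
GAS5: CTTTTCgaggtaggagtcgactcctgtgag
SNHG1: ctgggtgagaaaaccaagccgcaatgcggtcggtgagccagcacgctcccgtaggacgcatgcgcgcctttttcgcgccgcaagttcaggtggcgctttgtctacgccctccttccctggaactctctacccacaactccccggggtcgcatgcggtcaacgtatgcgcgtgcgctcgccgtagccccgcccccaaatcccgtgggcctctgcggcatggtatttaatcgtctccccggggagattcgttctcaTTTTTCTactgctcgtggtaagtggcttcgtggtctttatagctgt
The SNHG1 run is 7 bases long and opens at base 5 of the transcript. A run at least as long lay within the first 20 bases of 12.0% of 35116 RefSeq promoters, so this feature is common. The SNHG1 window also holds the start of SLC3A2, which is transcribed in the opposite direction from a start 224 bases away.

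MIAT is a nuclear RNA known for repeats of TACTAAC, the sequence of the yeast branch point, that bind splicing factor SF1. The longest GENCODE MIAT transcript holds 7 copies on its own strand, or 6.9 per 10 kb, against 0.33 in KCNQ1OT1, 0.44 in NEAT1 and 0 in MALAT1. The densest stretch lies on GRCh38 at chr22:26672033-26672225, plus strand, with its 4 copies in capitals.
MIAT: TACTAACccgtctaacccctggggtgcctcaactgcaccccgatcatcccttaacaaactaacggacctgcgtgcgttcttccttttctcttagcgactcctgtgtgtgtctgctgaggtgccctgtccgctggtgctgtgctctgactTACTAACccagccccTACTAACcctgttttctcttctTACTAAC

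The 6 libraries held 47620696 to 74061121 gene counts, with DOX-negative 3 the shallowest. MUC1 fell in the DOX-positive libraries, from 88.2, 90.2 and 79.6 to 36.7, 37.2 and 29.9 CPM (normalized counts per 1000000). The log2 fold change was -1.32 (SE 0.096, adjusted p = 0.00017 by the edgeR quasi-likelihood test). RN7SK, an abundant RNA without a poly(A) tail, took 5.83% to 7.79% of all counts. Its presence at this level stands beside a label that names an mRNA kit. All 7 neuroendocrine markers were tested and summed to 1342 to 1814 CPM, with 5 estimates below 0 and 2 above. By edgeR NCAM1 (-0.50) and INSM1 (-0.45) fell, 2 of 7 against 4.87% of all genes tested, while CHGB stood at 0.29 without overlap and without a call. Of 9 markers of fibroblasts and blood cells, 4 were tested, COL3A1 and CD3E were at 0 in all libraries, and their sum of 25.3 to 31.7 CPM overlapped between groups. LUM (1.06), CD68 (0.78) and COL1A1 (0.60) rose on the log2 scale by edgeR, while COL1A2, the other collagen chain tested, stood at -0.71 without overlap (adjusted p = 0.20), and the part of these markers in the results for the long noncoding RNAs was not tested.

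The 10 RNAs together took 0.614% to 1.18% of all counts, and MALAT1 alone made up 86.1% to 89.3% of that share. Levels between genes were compared per length, in TPM. MALAT1 was the highest, at 445 TPM averaged over the 6 libraries, followed by GAS5 at 82.8. SNHG1 stood at 23.5, NEAT1 at 16.0 and TUG1 at 11.1 TPM. PVT1, MIAT and KCNQ1OT1 stood at 1.65, 0.559 and 0.227 TPM. SNHG1 and NEAT1 overlapped across libraries, and so did NEAT1 and TUG1, while every other pair of neighbours from MALAT1 down to KCNQ1OT1 was separate.

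**Figure D1:**
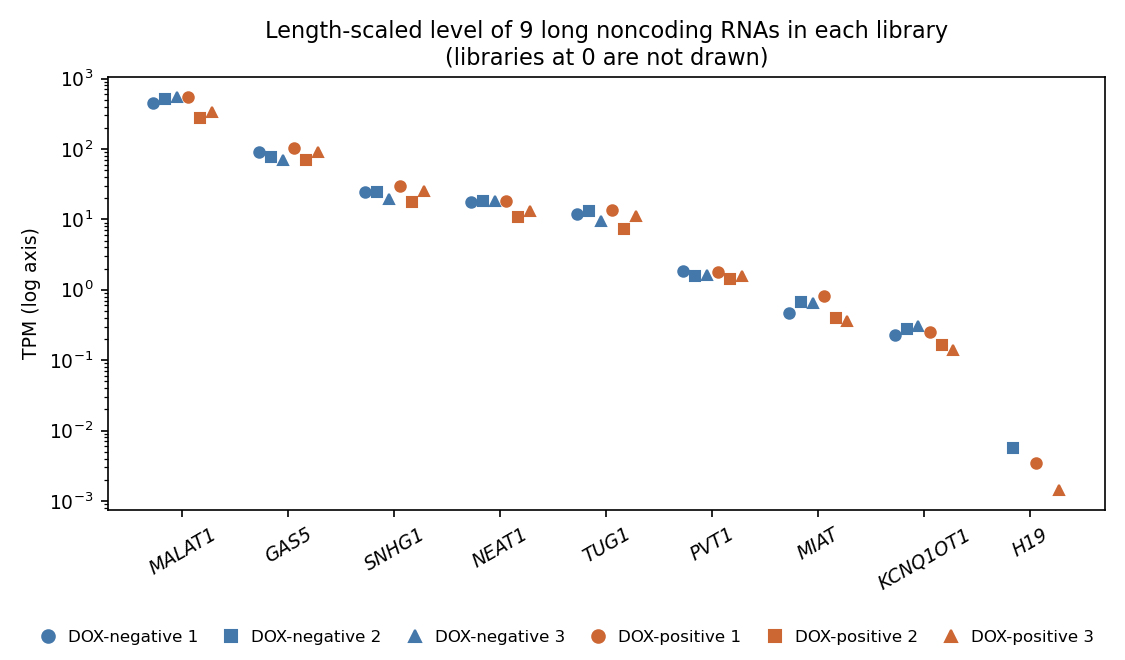
TPM on a log axis for the 9 RNAs with at least 1 count, 1 point per library, with blue for DOX-negative and orange for DOX-positive. MALAT1 lies between 275 and 555 TPM and KCNQ1OT1 between 0.138 and 0.303, and the H19 points rest on 1 to 3 counts each.

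The TPM order depends on the length that the authors' pipeline gave each gene, which the sources used here do not state. Counts per unit of TPM, relative to MALAT1, were 2.63 for NEAT1, close to the 2.59 given by the RefSeq length of 22743 bases for its long form. For KCNQ1OT1 the value was 10.7, against 10.4 from its unspliced RefSeq span of 91667 bases. For GAS5 it was 0.0507, against 0.586 from its RefSeq span with introns. The place of GAS5 above NEAT1 rests on these lengths. In CPM, which is not scaled by length, the DOX-negative means were 788.9 for NEAT1 and 66.35 for GAS5. The short and the long form of NEAT1 share their 5′ part, so the NEAT1 level here is of both together.

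The first question was whether RNAs of nuclear bodies changed when MUC1 was silenced. NEAT1 stood at 741, 712 and 914 CPM without DOX and at 626, 576 and 564 CPM with it. The groups did not overlap, and the DOX-positive libraries lay closer to each other than the DOX-negative ones. The mean fell from 789 ± 109 to 589 ± 32.8 CPM (SD, n = 3 each). In edgeR the log2 fold change was -0.42 (SE 0.097, 95% interval -0.63 to -0.21, adjusted p = 0.030). NEAT1 was the 1 member called among the 8 tested, where 4.87% of 17026 genes were called in either direction, 1.96% as lower and 2.91% as higher. The exact two-sided permutation p over the 6 libraries was 0.10, the smallest that 3 against 3 allows. A bulk measurement cannot tell apart less RNA per cell from fewer cells that express it. The call was lost in 4 of the 6 fits with a library left out: without DOX-negative 2 (adjusted p = 0.060), DOX-negative 3 (0.12), DOX-positive 2 (0.066) or DOX-positive 3 (0.083), in edgeR. The estimate stayed between -0.49 and -0.31 in these 6 fits. In TPM the groups overlapped, with 17.8, 18.1 and 18.0 against 18.0, 10.96 and 13.0, and no fit on TPM called NEAT1. TPM per unit of normalized CPM itself varied between libraries by a log2 of -0.279 to 0.313 around the typical gene. It was lowest in DOX-positive 2, the library with the largest RN7SK share of counts. In TPM, RN7SK was not highest in that library, at 256500 against 211800 to 271300 over the 6 libraries. The part of RN7SK in the TPM values was not tested.

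MALAT1 stood at 7129, 7699 and 10540 CPM without DOX and at 7356, 5495 and 5451 CPM with it. The groups overlapped, because DOX-positive 1 was above DOX-negative 1. The mean was 8457 ± 1828 against 6101 ± 1087 CPM (SD, n = 3 each), and the log2 fold change was -0.47 (SE 0.16, 95% interval -0.82 to -0.12). It missed the threshold in edgeR (adjusted p = 0.12), while DESeq2 called it (log2 fold change -0.47, adjusted p = 0.017). Without DOX-positive 1 edgeR also called it, at -0.63 (adjusted p = 0.030), and without DOX-negative 3 the estimate was -0.29 (adjusted p = 0.35). MALAT1 had 448982 counts per library on average, rank 6 of all genes, so counting error was small beside the spread between libraries.

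TALAM1, transcribed from the opposite strand of the MALAT1 locus, stood at 19.4, 26.5 and 31.5 CPM without DOX and at 22.9, 15.4 and 13.9 CPM with it. Its log2 fold change was -0.57 (SE 0.23, adjusted p = 0.21, edgeR), or -0.82 without DOX-positive 1 (adjusted p = 0.019), and its level was 0.255% to 0.344% of that of MALAT1 in every library. The strand setting of the counting is not given in the sources used here, so a small share of MALAT1 reads counted as TALAM1 cannot be told apart from TALAM1 itself. The ratio of NEAT1 to MALAT1 was 10.4%, 9.25% and 8.67% against 8.51%, 10.5% and 10.4%. These groups overlapped (exact two-sided permutation p = 0.90), so the neighbours on chromosome 11 held their ratio within the spread of the libraries.

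MIAT stood at 8.72, 11.6 and 14.7 CPM without DOX and at 12.4, 9.33 and 6.88 CPM with it. The groups overlapped widely. Its log2 fold change was -0.29 (SE 0.24, 95% interval -0.84 to 0.27, adjusted p = 0.56, edgeR). It moved with the libraries used, from -0.53 without DOX-positive 1 and -0.46 without DOX-negative 1 to -0.097 without DOX-negative 3 and -0.093 without DOX-positive 3, and was called in none of these fits.

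**Figure D2:**
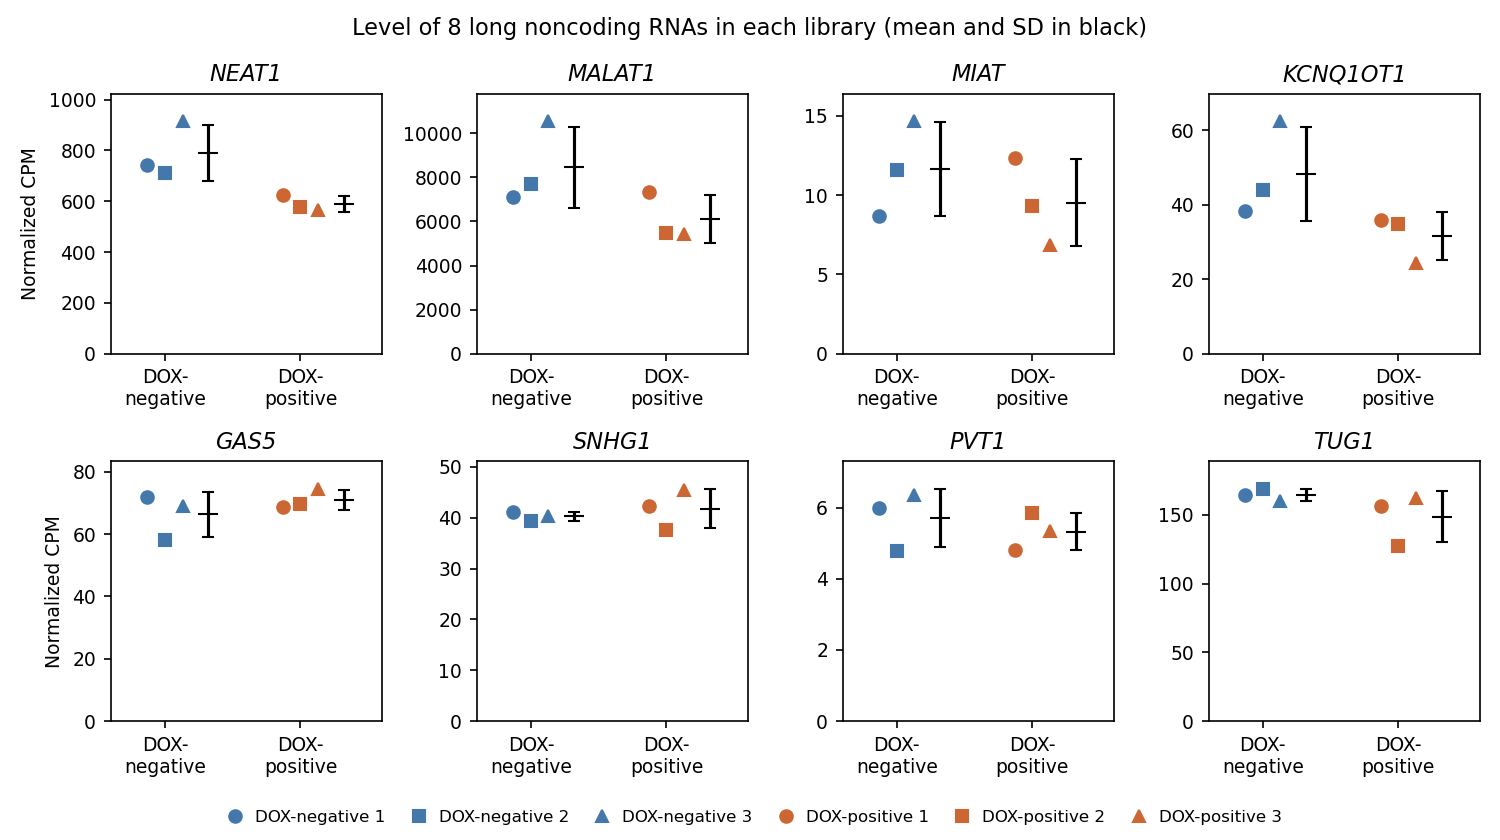
Normalized CPM of the 8 tested RNAs, 1 point per library on axes that start at 0, with the mean and SD of each group in black. NEAT1 and KCNQ1OT1 are the panels in which no orange point reaches a blue one.

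The proteins that build these bodies were read beside them. Of 20 genes for paraspeckle proteins, all tested, none was called by edgeR, and the median log2 fold change was -0.094 against 0.00034 over all genes. Their estimates were below 0 for 14 and above 0 for 6. Of the 20, 7 showed no overlap between groups, 6 of them lower, where 13.3% of all genes tested were lower without overlap. The most abundant of them were HNRNPA1, an RNA-binding protein (-0.12, SE 0.071), and NONO, a core protein that binds NEAT1 (0.019, SE 0.070). Of 22 genes for nuclear speckle proteins, none was called by edgeR and 2 were by DESeq2, and the median was -0.082. The lowest adjusted p in edgeR was 0.062. Estimates were below 0 for 18 and above 0 for 4, and 10 genes showed no overlap, 9 of them lower. So both lists leaned to lower levels without a call in edgeR. SRRM2, a scaffold of speckles, stood at 0.085 (SE 0.080), and PRPF8, a core splicing factor, at -0.054 (SE 0.073). At an unadjusted p under 0.05, 3597 of all genes passed in edgeR.

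**Figure D3:**
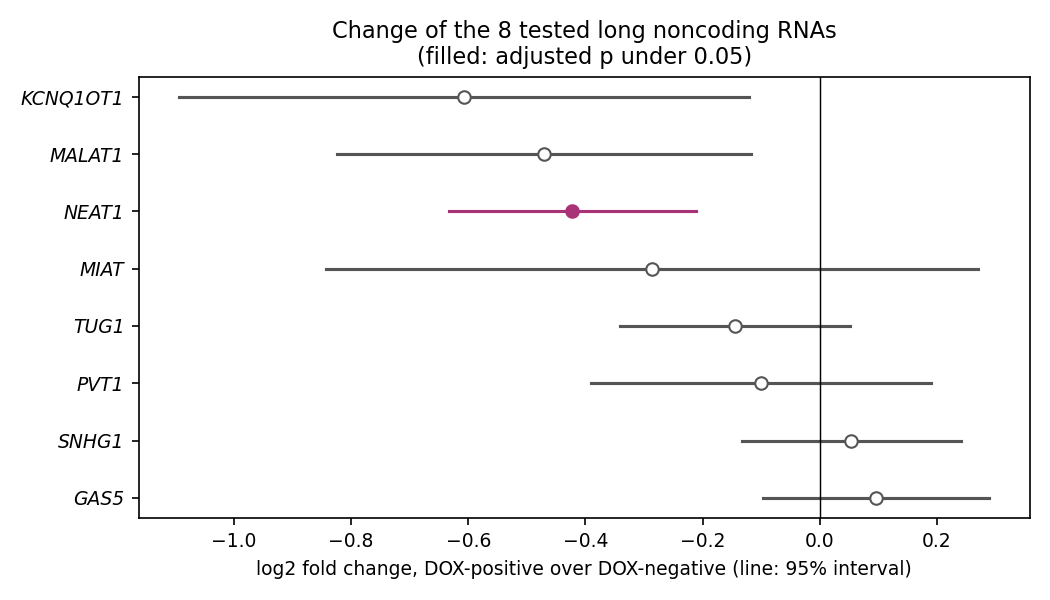
Log2 fold change of the 8 tested RNAs, DOX-positive over DOX-negative, with the 95% interval as a line and called genes filled. NEAT1 at -0.42 is the filled point, and the intervals of MALAT1 and KCNQ1OT1 also lie below 0.

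The second question was whether RNAs of imprinted loci changed. KCNQ1OT1, the paternally expressed antisense RNA that silences genes of the KCNQ1 domain, stood at 38.3, 44.0 and 62.4 CPM without DOX. With DOX it stood at 35.9, 34.8 and 24.2 CPM, so the groups did not overlap. The mean was 48.2 ± 12.6 against 31.6 ± 6.43 CPM (SD, n = 3 each), and the log2 fold change was -0.61 (SE 0.21, 95% interval -1.09 to -0.12). It missed the threshold (adjusted p = 0.15, edgeR), and the permutation p was 0.10, the smallest possible. KCNQ1OT1 and NEAT1 were the 2 members of 8 without overlap between groups, where 28.1% of all genes tested showed none and 13.3% were lower without overlap. Without DOX-negative 3 the KCNQ1OT1 estimate was -0.39 (adjusted p = 0.31). KCNQ1OT1 runs antisense through KCNQ1, and as for TALAM1 the strand setting of the counting is not known.

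Within the KCNQ1 domain, KCNQ1 itself, a potassium channel gene whose intron holds KCNQ1OT1, stood at 3.79, 3.59 and 3.21 CPM against 3.77, 4.91 and 4.61 CPM. Its log2 fold change was 0.32 (SE 0.14, adjusted p = 0.20, edgeR). The ratio of KCNQ1OT1 to KCNQ1 counts was 10.1, 12.3 and 19.4 without DOX and 9.51, 7.09 and 5.25 with it, a pair chosen after values were seen. The ratios did not overlap (log2 difference -0.92, exact two-sided permutation p = 0.10, the smallest possible). The ratio of KCNQ1OT1 to MALAT1 counts did overlap, at 0.537%, 0.571% and 0.592% without DOX and 0.488%, 0.633% and 0.444% with it. Its log2 difference was -0.134 (exact two-sided permutation p = 0.50). CDKN1C, a maternally expressed cell cycle inhibitor, stood at 15.7, 16.9 and 16.7 against 12.9, 14.6 and 10.3 CPM. Its log2 fold change was -0.39 (SE 0.12, adjusted p = 0.082, edgeR), and it passed the threshold in DESeq2 (adjusted p = 0.030), with no count filter (0.047), with the replicate block (0.036) and without DOX-positive 2 (0.030). PHLDA2, a growth-restraining gene of the domain, gave 0.51 (SE 0.17, adjusted p = 0.12, edgeR) and was called by DESeq2 (adjusted p = 0.047) and with the replicate block (0.044), so the estimates in this domain differed in sign.

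H19, a maternally expressed RNA beside IGF2, had 0, 3 and 0 counts without DOX and 2, 0 and 1 counts with it. MEG3, the maternally expressed RNA of the DLK1 locus, had 0 counts in all 6 libraries. At these depths a count of 0 allows a level of up to 0.0397 to 0.063 CPM, an allowance of 3 counts per library that covers counting error only. No fold change is given for either. DLK1, the protein-coding neighbour of MEG3 and an inhibitor of NOTCH signaling, was detected at 3.04, 2.94 and 3.28 against 3.82, 4.75 and 4.04 CPM. Its groups did not overlap, and its log2 fold change was 0.44 (SE 0.13, adjusted p = 0.072, edgeR).

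Among 51 imprinted genes, 32 were tested and 2 were called by edgeR, 6.25% against 4.87% of all genes. The count depended on the fit, with 7 of 44 by DESeq2, 4 of 44 with no count filter, 4 with the replicate block, 1 under RLE scaling, protein-coding TMM or the stricter filter, and 0 to 5 with a library left out (0 without DOX-negative 3, 5 without DOX-positive 1). SNHG14, the long RNA of chromosome 15 that hosts the SNORD115 and SNORD116 snoRNAs and runs antisense to UBE3A, stood at 22.1, 22.4 and 23.9 CPM without DOX and at 15.6, 13.9 and 16.0 CPM with it. It fell by 0.59 on the log2 scale (SE 0.088, adjusted p = 0.0061, edgeR), without overlap. BLCAP, a gene of the NNAT locus, rose by 0.32 (SE 0.085) at an adjusted p of 0.0498, just inside the threshold. Without DOX-negative 3 the SNHG14 estimate was -0.56 (adjusted p = 0.057, edgeR), and SNHG14 stayed called in the other 5 fits with a library left out. BLCAP lost its call in 5 of these 6 fits, all but that without DOX-positive 1, with adjusted p values up to 0.23. The median of the 32 was -0.097.

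The snoRNA hosts were next. GAS5 stood at 71.9, 58.1 and 69.1 CPM without DOX and at 68.7, 69.7 and 74.5 CPM with it. The groups overlapped, and the log2 fold change was 0.096 (SE 0.089, 95% interval -0.096 to 0.29, adjusted p = 0.58, edgeR), or 0.0094 without DOX-negative 2. SNHG1 stood at 41.2, 39.3 and 40.3 CPM against 42.3, 37.7 and 45.4 CPM. Its log2 fold change was 0.054 (SE 0.086, 95% interval -0.13 to 0.24, adjusted p = 0.77). The SEs of GAS5 and SNHG1 were the smallest of the 8 tested RNAs. The ratio of GAS5 to SNHG1 lay between 1.48 and 1.85 in all libraries, with overlapping groups.

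The intronic snoRNAs of both hosts were counted at low levels, the highest being SNORD74 with 2.499 CPM in DOX-negative 3. Of 10 snoRNAs in GAS5 introns, 5 were tested and none was called by edgeR, with a median log2 fold change of -0.22. SNORD74 stood at -0.28 (SE 0.20) and SNORD80 at -0.57 (SE 0.22, adjusted p = 0.16). Of 8 in SNHG1 introns, 7 were tested and 1, SNORD22, fell, from 0.986, 1.00 and 1.49 CPM to 0.661, 0.527 and 0.610 CPM (log2 fold change -0.93, SE 0.23, adjusted p = 0.041, edgeR). SNORD22 kept its call only without DOX-negative 1, and in the other 5 fits with a library left out its estimate was -1.02 to -0.72 (adjusted p = 0.052 to 0.17). All 12 tested snoRNAs of both hosts had estimates below 0, while the estimates of their hosts were above 0, except that SNHG1 came to -0.0094 without DOX-positive 3. Across all 218 RefSeq snoRNA genes tested, 180 had estimates below 0 and the median was -0.37, which is the background for that direction. Of these 218, 4 were called by edgeR (1.83%), all lower, against 14.3% of the 7 in SNHG1 introns, which is SNORD22 alone.

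SLC3A2, the amino acid transporter subunit that starts beside SNHG1, stood at 241, 221 and 223 CPM without DOX and at 252, 299 and 284 CPM with it. The groups did not overlap, and its log2 fold change of 0.29 (SE 0.081) missed the threshold (adjusted p = 0.064, edgeR), which it passed in DESeq2 (0.027), with no count filter (0.046) and without DOX-positive 1 (0.035). The ratio of SLC3A2 to SNHG1 was 5.85, 5.61 and 5.53 against 5.95, 7.94 and 6.25, also without overlap. It carries the change of SLC3A2 over an SNHG1 near 0, so it is not separate support. Among 29 other RNAs of snoRNA host genes, SNHG14 included, 24 were tested and SNHG14 was the 1 called by edgeR (4.17% against 4.87% of all genes). The median of the 24 was 0.039, with 18 estimates above 0.

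PVT1, an RNA on chromosome 8 next to the oncogene MYC, stood at 5.99, 4.78 and 6.34 CPM without DOX and at 4.80, 5.84 and 5.33 CPM with it. The groups overlapped, and the log2 fold change was -0.10 (SE 0.13, 95% interval -0.39 to 0.19, adjusted p = 0.72, edgeR). MYC rose, from 22.7, 20.5 and 17.8 CPM to 28.5, 34.4 and 37.5 CPM (log2 fold change 0.72, SE 0.12, adjusted p = 0.0091, edgeR), though without DOX-negative 3 it missed the threshold (0.63, adjusted p = 0.080). By qRT-PCR, a different assay, the study reported that MYC transcripts in H660 cells depended on MUC1-C, the opposite direction. It also reported lower MYC protein in lysates and chromatin of silenced H660 cells. From H660 RNA-seq it reported a lower MYC target gene signature, a measure of other genes than MYC. The difference was not tested here. The ratio of MYC to PVT1 was 3.79, 4.28 and 2.80 against 5.93, 5.89 and 7.03, without overlap between groups (exact two-sided permutation p = 0.10, the smallest possible). This ratio carries the change of MYC over a PVT1 that was not called, so it is not separate support. Of 7 microRNA precursors inside members, only MIR1204 in PVT1 could be tested, at -0.086 (SE 0.40).

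TUG1, an RNA with roles in chromatin regulation that RefSeq lists as protein-coding, stood at 164, 169 and 160 CPM without DOX and at 156, 128 and 163 CPM with it. DOX-positive 2 was low and the other DOX-positive libraries lay close to the controls. The log2 fold change was -0.15 (SE 0.090, 95% interval -0.34 to 0.051, adjusted p = 0.39, edgeR). MORC2, its neighbour in the opposite direction and a chromatin-silencing protein, gave -0.0087 (SE 0.075, adjusted p = 0.96, edgeR).

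Set side by side, 6 of the 8 tested RNAs had estimates below 0, with a median of -0.22. Estimates were below 0 for 8498 of all 17026 genes tested and for 724 of 1253 RefSeq long noncoding RNA genes tested. Of these 1253, 36 were called (2.87%), 15 higher and 21 lower, with a median of -0.073. Of 24 genes beside the members, 19 were tested and MYC was the 1 called by edgeR (5.26% against 4.87% of all genes). DESeq2 called 4 of 23, and edgeR called 3 of 23 with no count filter, 3 with the replicate block, and 0 to 3 with a library left out (0 without DOX-negative 3, 3 without DOX-positive 1). Around NEAT1 and MALAT1, the protein-coding genes FRMD8 (0.16), LTBP3 (-0.13) and EHBP1L1 (0.14) had log2 fold changes on both sides of 0, with adjusted p values of 0.27 or more in edgeR. IGF2, beside H19, gave 0.25 with an SE of 0.74, too wide to place.

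Some members, and TALAM1 beside them, shared an order of libraries and are named here for that reason. Deviations were taken from the mean of all 6 libraries, so they include any difference between the groups. DOX-negative 3 held the highest level of MALAT1, NEAT1, MIAT, KCNQ1OT1 and TALAM1, at 0.571, 0.429, 0.513, 0.702 and 0.602 above the mean of all libraries on the log2 scale. DOX-positive 3 held the lowest level of all 5, at -0.38, -0.27, -0.58, -0.66 and -0.58. GAS5, SNHG1 and TUG1 did not share this pattern, with DOX-positive 3 at 0.12, 0.15 and 0.059. PVT1 shared it in part, with DOX-negative 3 highest at 0.21 and DOX-positive 3 at -0.041, not its lowest. DOX-negative 3 was also the library with the fewest counts, and whether depth, RNA quality or the share of nuclear RNA bears on these values was not tested.

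**Figure D4:**
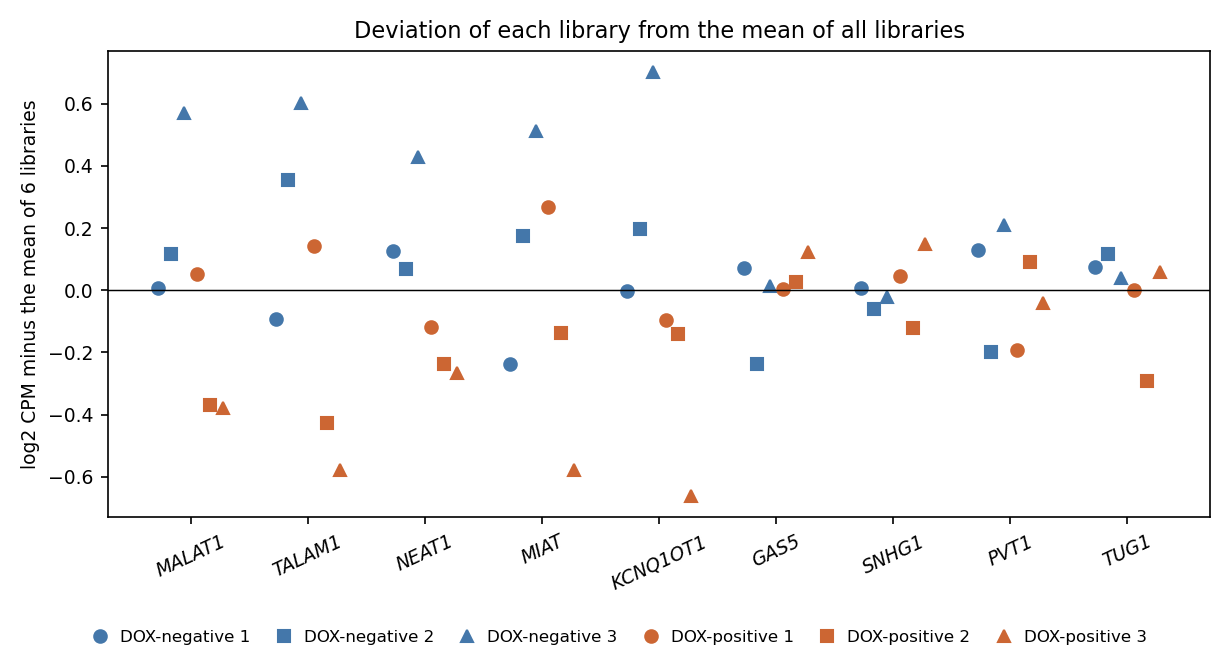
Log2 CPM of 8 members and TALAM1 in each library, minus the mean of the 6 libraries. The blue triangle, DOX-negative 3, lies between 0.429 and 0.702 for the 5 RNAs on the left, and the orange triangle, DOX-positive 3, is the lowest of each.

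The weight of that library differed between members. Without DOX-negative 3 the estimates were -0.31 for NEAT1, -0.29 for MALAT1 and -0.39 for KCNQ1OT1, each smaller than with all libraries and each still below 0. The direction of these 3 RNAs held in each of the 6 fits with a library left out.

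**Figure D5:**
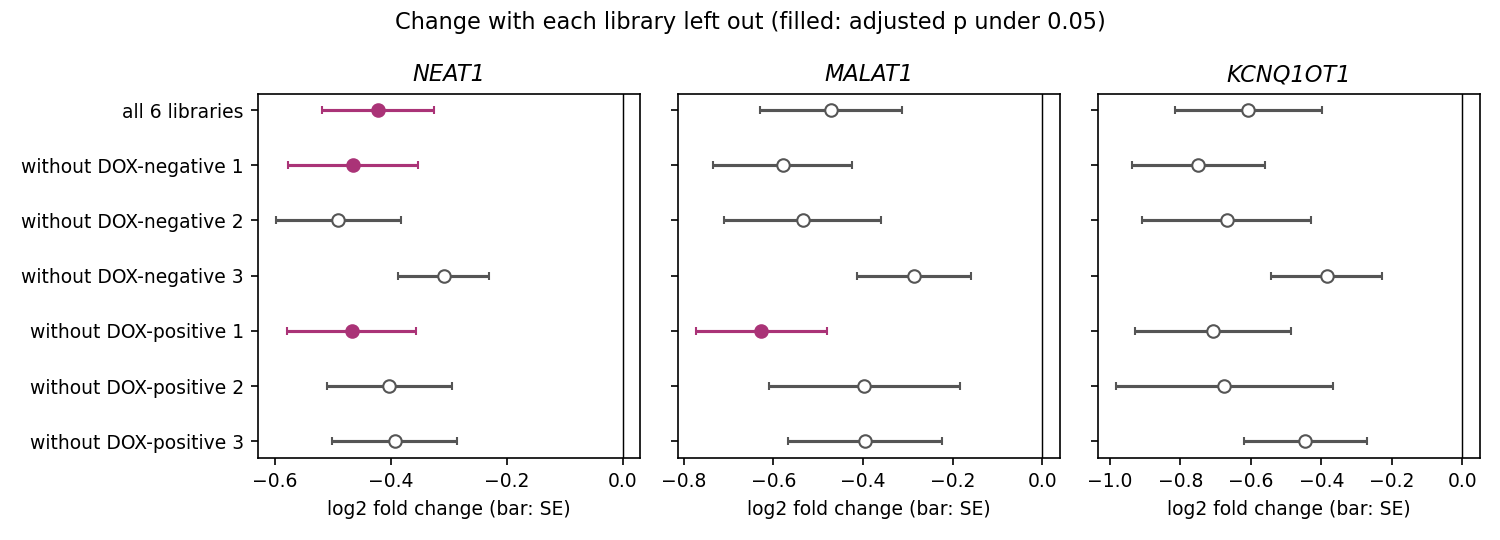
Log2 fold change of NEAT1, MALAT1 and KCNQ1OT1 with all libraries and with each left out, with the SE as a bar and called fits filled. NEAT1 is called in 3 of the 7 fits, MALAT1 in 1, at -0.63 without DOX-positive 1, and KCNQ1OT1 in none.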

How the data were processed

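H660 cells with a tet-inducible MUC1shRNA were compared as 3 DOX-negative and 3 DOX-positive libraries, grouped by their labels. The authors deposited STAR gene counts for 28008 symbols and TPM for 25673, on GRCh38 per the labels. The aligner version, annotation, strand setting and TPM gene lengths are not given in the sources used here. The deposited counts were filtered with filterByExpr, scaled by TMM (factors 0.967 to 1.03) and tested with edgeR 4.0.16 in R 4.3.3 by the robust quasi-likelihood test, with Benjamini-Hochberg adjustment over 17026 genes and calls at an adjusted p under 0.05. Normalized CPM are counts per 1000000 of the scaled library size. Standard errors are the log2 fold change divided by the root of the F statistic. The deposited TPM were used for levels between genes and in limma 3.58.1 fits on log2(TPM + 1). The study used DESeq2, here an alternative (1.42.0). Biotypes and coordinates came from RefSeq (GRCh38.p14), where 25658 symbols matched. Chi-square per degree of freedom between libraries of 1 group was 16.4 or more over 15977 genes, so no library was a duplicate. Deviations of libraries with the same replicate number correlated at -0.485, 0.0161 and -0.0913. With 3 libraries per group these values cannot show whether a number marked a shared culture or day. The test was checked on simulated counts with changes larger than those of the members and the same dispersion for every gene. That check therefore does not cover changes of the members' size or their spread.

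The members and lists were chosen with earlier results of these data known. Named were all members, MUC1, RN7SK and the tested genes beside or inside members. Of every other list up to 4 called genes with the largest change were named, or the 2 most abundant where none was called.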

Additional observations from a re-analysis of the deposited data

How the results depend on the processing

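With other scalings, count filters and limma-voom, edgeR-type fits called 676 to 1125 genes against 829 and NEAT1 alone among the members. DESeq2 called 1354 genes and 2 members, NEAT1 and MALAT1. On TPM, limma-trend called 30 genes with a pseudocount of 1, 35 with 0.1 and 0 without a filter (1248 at an unadjusted p under 0.05), and 0 members each time. Of the called genes, 40.2% were lower in the main test, 56.7% and 54.3% in the first 2 TPM fits. TPM per unit of normalized CPM differed between libraries by a log2 of -0.279 to 0.313. After TPM was rescaled over protein-coding genes, a fit chosen after seeing the data, 337 genes and 0 members were called (NEAT1 -0.42, adjusted p = 0.082). Leaving out 1 library gave 58 to 1035 genes, fewest without DOX-negative 3, and 0 to 2 members. SNHG1 ranged from -0.0094, a reversal without DOX-positive 3, to 0.125. With the replicate block, 998 genes were called, 750 shared, and NEAT1 stayed called at -0.42 (adjusted p = 0.0069). Over all 18 alternatives NEAT1 was called in 10, from -0.49 to -0.31 (adjusted p 0.0014 to 1), and MALAT1 in 2. SNHG14 was called in 13 of 16, MYC in 14 of 18, SNORD22 in 7 of 13 and BLCAP in 5 of 18. Spread between libraries limited the abundant RNAs, and counts limited H19 and MEG3.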

Other observations

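Among 41 other long noncoding RNAs, 34 were tested and CYTOR was the 1 called by edgeR (2.94%), against 2 of 38 by DESeq2 or with no count filter. CYTOR, the cytoskeleton regulator RNA, rose from 2.60, 2.28 and 2.29 CPM to 3.31, 4.18 and 3.61 CPM (0.62 on the log2 scale, SE 0.14, adjusted p = 0.027, edgeR). The median of the 34 was -0.16, with 23 estimates below 0. CYTOR lost its call without DOX-negative 2, DOX-negative 3, DOX-positive 2 or DOX-positive 3, at 0.53 to 0.64 (adjusted p = 0.054 to 0.13).

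Of 15 genes of nonsense-mediated decay, which degrades spliced GAS5 and SNHG1, none was called by edgeR and the median was -0.011. Of 11 tested RNAs without a long poly(A) tail, 2 were called by edgeR (18.2% against 4.87% of all genes), RNU12 and SCARNA10. RNU12, the U12 RNA of the minor spliceosome, fell by 0.77 on the log2 scale (SE 0.12, adjusted p = 0.0065, edgeR), and without DOX-negative 3 by 0.72 (adjusted p = 0.057). SCARNA10, a small RNA of Cajal bodies, fell by 0.46 (SE 0.12) at an adjusted p of 0.049, a call kept only without DOX-negative 1 or DOX-positive 2 (in the other fits with a library left out, -0.50 to -0.34, adjusted p up to 0.22). The summed level of that list was 105200 to 169500 CPM, highest in DOX-positive 2, with overlapping groups (exact two-sided permutation p = 0.60).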
